A study of Homo sapiens with 65 samples.

Results

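The D-type cyclins CCND1, CCND2 and CCND3, their kinases CDK4 and CDK6, the E-type cyclins CCNE1 and CCNE2 and the inhibitors CDKN1A, CDKN1B and CDKN1C were followed through 16 groups of human cardioids. These 10 genes were taken by name from the 58735 gene IDs of the deposited count table. The set was selected on measured values of these libraries: CCND2 counts at day 7.5, named as called in both arms, led to it. The fit used here did not make the enzyme-arm call, and nothing below rests on a call in either arm. Each day 7.5 difference between conditions, and CCND2 from day 4.5 to 7.5, is therefore given as a description with no test.

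The study made 65 RNA-seq libraries from left-ventricular cardioids, which are self-assembling heart-like aggregates, all grown from WTC-11, a human induced pluripotent stem cell line, with 8 cardioids pooled in each library. In the genotype arm, wild-type cardioids (WT) and cardioids of HAS2-KO clones (KO) were collected at days 1.5, 2.5, 4.5 and 7.5, with 5, 6, 6 and 3 WT and 6, 6, 6 and 3 KO libraries. The WT libraries came from 4 differently named sources (WT, WT_TU, cl43_WT_UT and TNT2), of which WT and WT_TU alone were present at day 7.5. In the enzyme arm, untreated cardioids were set against cardioids given hyaluronidase from day 1.5 (HAse1.5, days 2.5, 4.5 and 7.5) or from day 2.5 (HAse2.5, days 4.5 and 7.5), with 3 libraries per group. HAS2 makes hyaluronan, a sugar polymer of the extracellular matrix, and hyaluronidase cuts it. The labels call the cells cardiac progenitors up to day 4.5 and cardiomyocytes at day 7.5. The KO libraries came from 4 clones (cl4, cl14, cl46 and cl51), of which cl4 gave 3 of the 6 libraries at days 1.5, 2.5 and 4.5, and cl4 and cl14 alone were present at day 7.5. The part of HAS2 that was deleted is not given in the sources used here. In the enzyme arm, replicates 1, 2 and 3 were the lines named TNNI1, WT and TNNT2.

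Cells commit to DNA replication late in the G1 phase of the cell cycle. D cyclins, made in response to growth signals, bind CDK4 or CDK6 and begin to phosphorylate the retinoblastoma protein, which frees E2F transcription factors; E cyclins then bind CDK2 and complete that step. The CIP/KIP proteins p21 (CDKN1A), p27 (CDKN1B) and p57 (CDKN1C) bind these complexes and restrain CDK2, and heart muscle cells divide less and less as they mature.

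The genes lie on GRCh38 (GENCODE 29) at chr11:69641087-69654474 on the plus strand (CCND1), chr12:4273772-4305350 plus (CCND2), chr6:41934933-42050357 minus (CCND3), chr12:57747727-57756013 minus (CDK4), chr7:92604921-92836594 minus (CDK6), chr19:29811898-29824308 plus (CCNE1), chr6:36676460-36687339 plus (CDKN1A), chr12:12715058-12722371 plus (CDKN1B) and chr11:2883213-2885773 minus (CDKN1C). Whether reads were counted by strand is not given in the sources used here, so reads of a gene and of an overlapping gene on the other strand may not have been told apart. Such partners are LTO1 for CCND1, CCND2-AS1 for CCND2, INTS8 and NDUFAF6 for CCNE2, TSPAN31 and MARCHF9 for CDK4, and CDK6-AS1 for CDK6, and values of these members carry that uncertainty. INTS8 and NDUFAF6 had more counts (2358 and 1881 over all libraries) than CCNE2 itself (716).

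RefSeq promoter windows (GRCh38.p14, 250 bases before to 50 after a start site) were at hand for 6 of the 10 members; CCND1, CCND2, CCNE2 and CDKN1C had none. Shown are CDKN1A and CDK6, the members called between conditions, and CCNE1 and CDK4, whose group means ran most closely together of all pairs of members compared. Capitals mark GGGCGG, the core of a GC box, or its reverse complement CCGCCC in CDKN1A, CDK6 and CCNE1, and CACGTG, an E-box that reads alike on both strands, in CDK4.
CDKN1A, chr6:36678464-36678763, plus strand: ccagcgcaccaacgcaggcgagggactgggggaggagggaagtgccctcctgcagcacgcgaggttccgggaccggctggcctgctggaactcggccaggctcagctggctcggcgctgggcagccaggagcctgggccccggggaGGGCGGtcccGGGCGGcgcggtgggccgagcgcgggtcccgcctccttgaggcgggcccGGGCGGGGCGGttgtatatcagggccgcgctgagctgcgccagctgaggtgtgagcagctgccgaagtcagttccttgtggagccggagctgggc
CDK6, chr7:92836524-92836823, minus strand: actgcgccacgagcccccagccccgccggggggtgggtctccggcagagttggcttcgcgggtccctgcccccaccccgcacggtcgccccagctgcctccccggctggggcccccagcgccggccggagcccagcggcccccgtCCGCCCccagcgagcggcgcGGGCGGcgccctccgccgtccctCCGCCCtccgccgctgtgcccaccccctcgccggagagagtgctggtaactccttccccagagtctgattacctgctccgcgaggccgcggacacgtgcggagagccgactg
CCNE1, chr19:29811741-29812040, plus strand: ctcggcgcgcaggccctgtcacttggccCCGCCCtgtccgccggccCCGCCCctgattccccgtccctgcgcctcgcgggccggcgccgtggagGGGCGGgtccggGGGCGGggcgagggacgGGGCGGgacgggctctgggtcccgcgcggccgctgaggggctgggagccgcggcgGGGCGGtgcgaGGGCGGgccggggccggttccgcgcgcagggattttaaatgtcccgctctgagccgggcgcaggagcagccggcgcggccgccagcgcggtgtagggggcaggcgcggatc
CDK4, chr12:57752261-57752560, minus strand: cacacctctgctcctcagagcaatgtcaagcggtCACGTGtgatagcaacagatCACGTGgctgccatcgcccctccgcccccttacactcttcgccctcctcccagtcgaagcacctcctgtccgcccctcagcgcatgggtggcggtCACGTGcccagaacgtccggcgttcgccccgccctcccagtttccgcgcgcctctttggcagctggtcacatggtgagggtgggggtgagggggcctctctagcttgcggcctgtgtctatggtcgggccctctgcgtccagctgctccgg

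Both strands were searched and overlapping matches were each counted. CCNE1 held 7 matches to GGGCGG, CDKN1A held 4, of which 2 overlap each other, and CDK6 held 3 in the window shown. The other of the 2 windows of CDK6 held 0 matches to CACGTG and 0 to GGGCGG. Of members not shown, CDKN1B held 1 match to GGGCGG, and the windows of CCND3 held 5, 4 and 0. Of all 35116 windows of this length, 44.95% held at least 1 such match. CDK4 also held 3 matches to GGGCGG. CDK4 held 3 matches to CACGTG and CDK6 held 1 (not in capitals), against 7.26% of all windows with any. The E2F-type sequences TTTCCCGC and TTTGGCGC (2.27% of windows), TATAAA (11.5%) and TGACTCA (4.95%) were not found in any member's window.

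Total counts ranged from 831062 to 3574843 per library (median 1570954), and a member's level is given as counts per 1000000 counts of its library (CPM). All 10 members passed the filter on low counts in both arms, although CCNE2 (0 to 48 counts per library) and CDKN1A (1 to 67 counts) were low. HAS2, the gene named in the KO labels, had group means of 165 to 582 CPM in libraries labelled KO and 197 to 657 CPM in those labelled WT; 3′ reads outside a deleted part would check nothing, so KO below means labelled KO. The 7 cardiomyocyte markers (TNNT2, MYH6, MYL7, ACTN2, NKX2-5, TNNI1 and MYL4) summed to 24236 to 33074 CPM in every WT and KO library at day 7.5, against 15.0 to 108 CPM at day 1.5.

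Library numbers of the genotype arm fall into 3 blocks, called runs A (10 libraries), B (11) and C (20) here; the labels do not say what the blocks mark. Run A stood apart for 4 members in WT and KO alike at day 1.5. At day 1.5, CDK6 had 31.9 and 40.3 CPM in the 2 WT libraries and 52.3 CPM in the KO library of run A, against 152 to 220.2 CPM in all others. At the same day CDK4 had 342 to 357 CPM in run A against 160 to 212 CPM elsewhere, and CCNE1 had 73.7 to 88.4 CPM against 28.2 to 47.7 CPM. CCNE2 was the reverse, with 2.41 to 3.92 CPM in run A against 11.4 to 24.9 CPM. The low CDK6 and the high CDK4 of run A were seen again in its WT libraries at days 2.5 and 4.5. Its only KO library (cl4_R1) had high CDK4 at day 2.5 but neither feature at day 4.5, when CDK6 was 212 CPM and CDK4 77.7 CPM. WT and WT_TU were the WT sources of runs A and B, and cl43_WT_UT and TNT2 those of run C. At day 7.5 WT had 1 library of run A and 2 of run B. KO had 1 of run B and 2 of run C on that day. Run B alone held both conditions then, so condition and run cannot otherwise be told apart at day 7.5. The steps from day 4.5 to 7.5 also change runs, since run C was absent from WT and run A from KO at day 7.5. Other members differed in part. In WT at day 1.5, CCND1 had 132 to 174 CPM in run A and 201 to 281 CPM in runs B and C. At day 2.5 it was lower in run A in WT and KO. CDKN1B in WT at day 4.5 had 92.8 to 115 CPM in run A and 58.0 to 83.4 CPM in runs B and C. The KO library of run A lay within the range of the others for CCND1 at day 1.5 and CDKN1B at day 4.5. Where a call on CDK6, CDK4, CCNE1 or CCNE2 was made or lost without run A, both values are given. That setting was chosen after the data were seen.

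**Figure D1:**
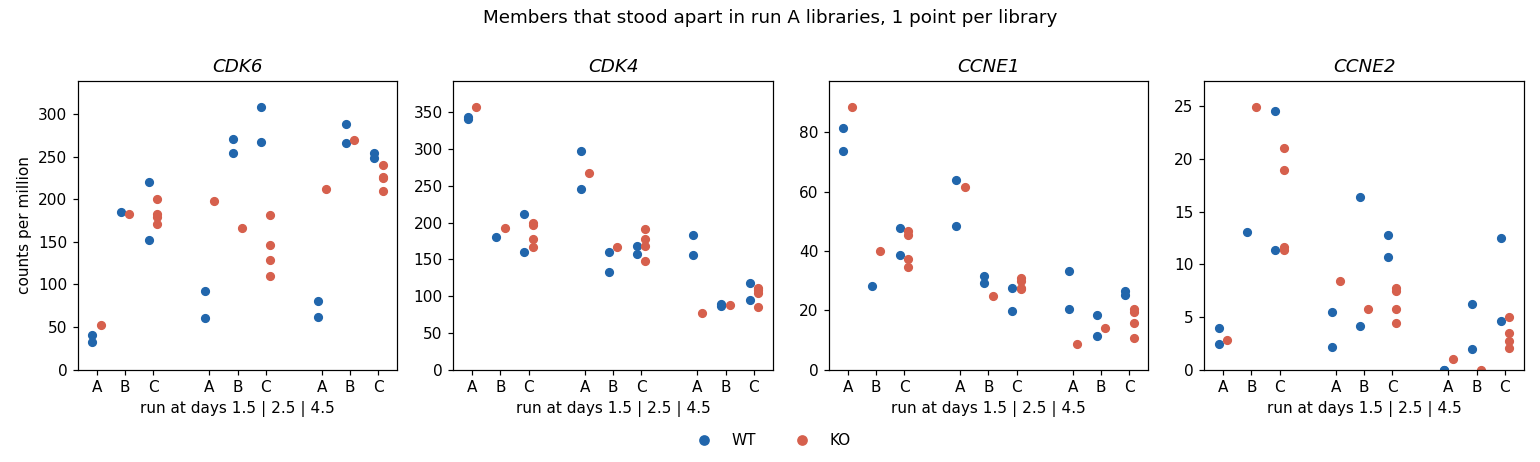
CPM of CDK6, CDK4, CCNE1 and CCNE2 in each WT (blue) and KO (red) library at days 1.5, 2.5 and 4.5, split by run A, B or C, with 1 point per library. CDK6 lay at or below 91.8 CPM in the WT libraries of run A at all 3 days and at or above 152 CPM in those of runs B and C.

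Differences were tested with edgeR's quasi-likelihood test over all genes of an arm, with Benjamini-Hochberg adjusted p-values and a threshold of 0.05, and "called" means past that threshold. Most calls of members came with time. From day 1.5 to 2.5, 3 of 10 members were called in WT, beside 30.1% of all genes tested, and 4 of 10 in KO, beside 33.3%. From day 2.5 to 4.5 it was 5 of 10 in WT (34.5% of all genes), 7 of 10 in KO (30.5%) and 5 of 10 in untreated cardioids of the enzyme arm (23%). From day 4.5 to 7.5, leaving CCND2 aside, 1 of 9 was called in WT (2.7% of all genes), 1 of 9 in KO (6.22%) and 0 of 9 in untreated cardioids (6.39%), where 1 of 9 had an unadjusted p under 0.05 and DESeq2, like the fit with line as a replicate block, called 1 (CDK4). Shares in WT thus lay near those of all genes in the first step. The steps share a group at their common day and are not independent of each other.

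**Figure D2:**
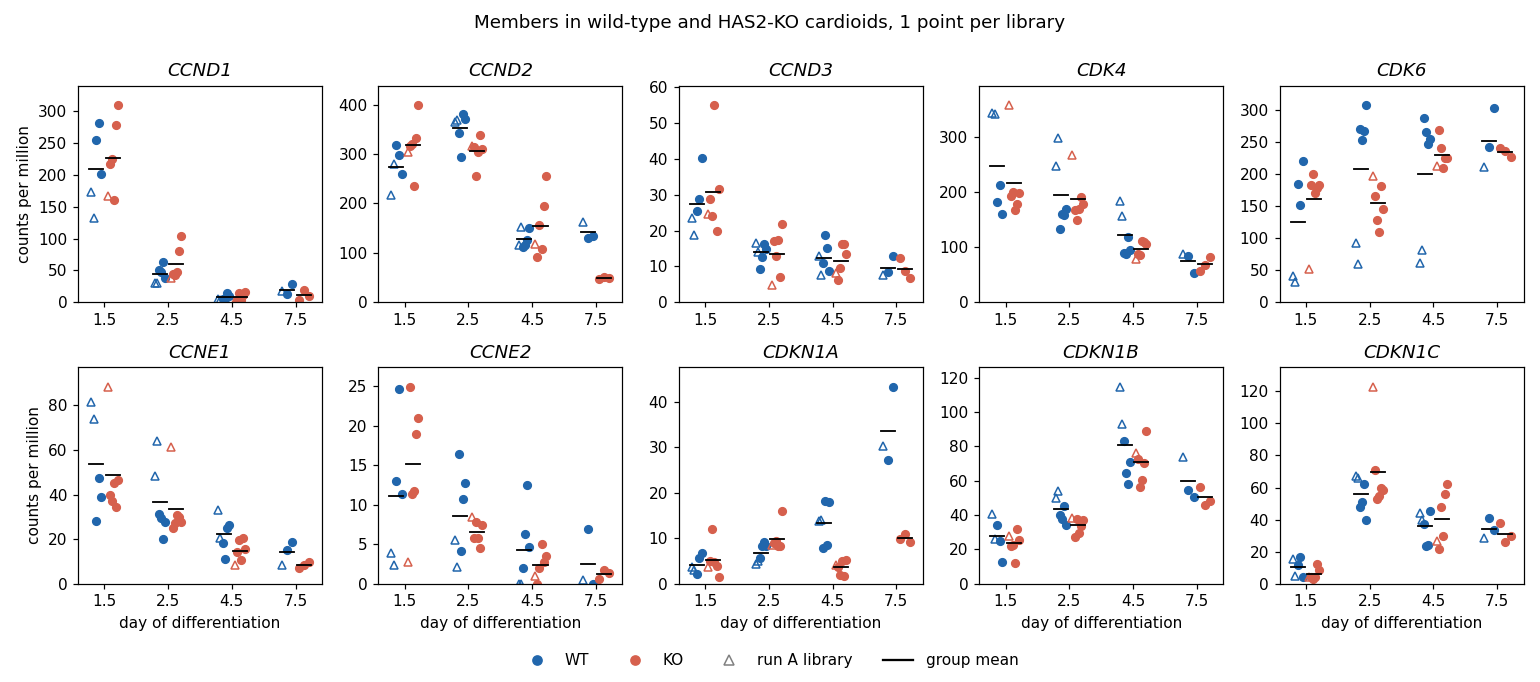
CPM of each member in every WT (blue) and KO (red) library at days 1.5, 2.5, 4.5 and 7.5, with open triangles for run A and black lines for group means. CCND1 fell and CDKN1C rose from day 1.5 to 2.5 in WT and KO alike, and CDKN1A at day 4.5 lay at 1.62 to 5.21 CPM in KO and 7.82 to 18.2 CPM in WT.

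Between conditions few members were called. KO against WT gave 0 of 10 members at day 1.5 (0% of all genes called) and 0 of 10 at day 2.5 (0.993%). By edgeR 1 and 0 members had an unadjusted p under 0.05 on these days, and DESeq2 called none on either. At day 4.5, 1 of 10 was called, CDKN1A, beside 3.74% of all genes. The KO effect changed over days 1.5, 2.5 and 4.5 for 1 of 10 members, again CDKN1A, beside 0.616% of all genes. HAse1.5 against untreated gave 1 of 10 at day 2.5, CDK6 (1.15% of all genes), and 0 of 10 at day 4.5 (3.48%), where 2 members had an unadjusted p under 0.05 and DESeq2 called none. HAse2.5 against untreated gave 0 of 10 at day 4.5 (0.22%), with 1 member at an unadjusted p under 0.05 and 1 called by DESeq2, and HAse1.5 against HAse2.5 gave 0 of 10 (0.361%), with 1 at an unadjusted p under 0.05 and none called by DESeq2. At day 7.5 the share of all genes called was 0.348% for KO against WT, 3.33% for HAse1.5 and 0.659% for HAse2.5 against untreated; these contrasts chose the members, and no count is read against them. HAse1.5 and HAse2.5 were set against the same untreated libraries.

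**Figure D3:**
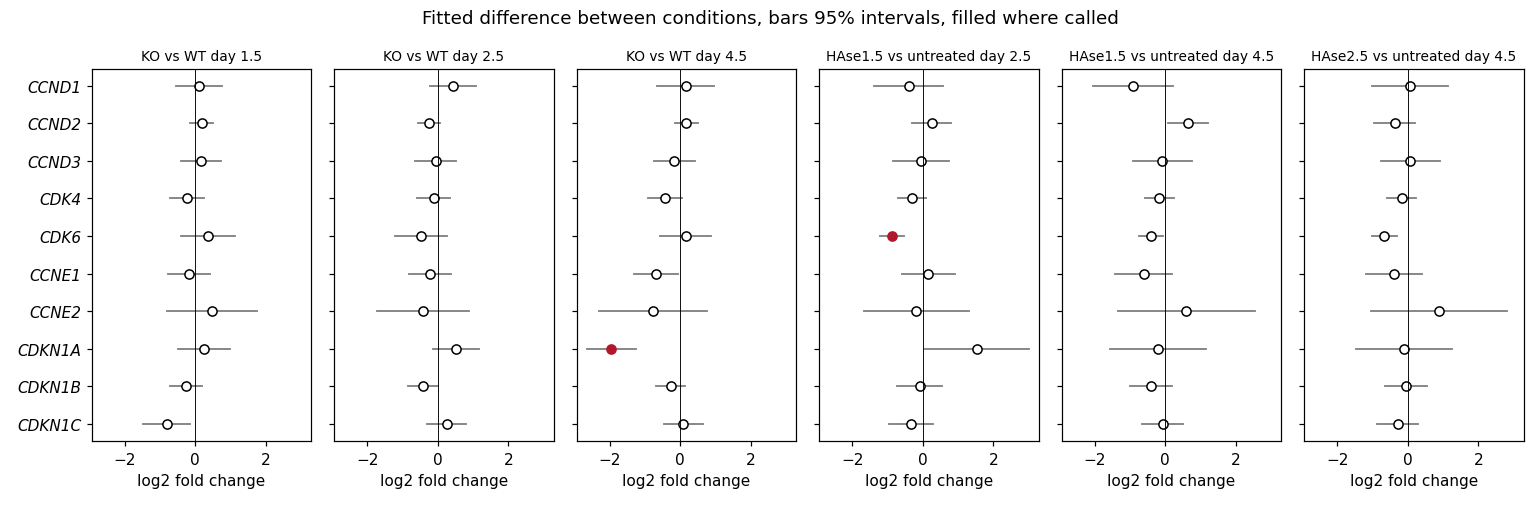
Fitted log2 fold change of each member (rows) in the 6 tested comparisons between conditions, with bars for the 95% interval. Filled red points were called: CDKN1A in KO at day 4.5 (−1.961) and CDK6 in HAse1.5 at day 2.5 (−0.87).

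CCND1, the D cyclin most often tied to growth factor signalling, fell in both early steps. In WT it had 174, 132, 254, 281 and 201 CPM at day 1.5, 30.1 to 63.7 (median 43.3) at day 2.5 and 3.24 to 15.2 (median 5.63) at day 4.5. The ranges of successive days did not overlap, and the log2 fold changes were −2.46 ± 0.35 (SE) and −2.54 ± 0.38 (SE) (edgeR adjusted p 5.89e-07 and 1.05e-06). In KO it had 160.2 to 309 (median 221) CPM at day 1.5, 38.5 to 104 (median 45.5) at day 2.5 and 2.03 to 16.2 (median 7.49) at day 4.5. The KO ranges did not overlap either, with log2 fold changes of −2.12 and −2.82 (adjusted p 4.08e-06 and 1.55e-07). These 4 falls were called in every alternative analysis. In bulk libraries, fewer cells with a transcript and less of it per cell cannot be told apart, here and in all that follows.

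At day 7.5 CCND1 had 18.0, 12.6 and 28.4 CPM in WT and 3.90, 19.6 and 9.29 CPM in KO, and the groups overlapped. WT values were above most of those at day 4.5, but the step missed the threshold (1.48, adjusted p 0.0734), as did that in KO (0.46, adjusted p 0.748). The WT step was called in 3 of 17 alternatives and the KO step in 0 of 18. Untreated cardioids of the enzyme arm had 55.2, 62.6 and 25.2 CPM at day 2.5 and 23.2, 10.7 and 20.2 at day 4.5. The fall was called (−1.49 ± 0.53 (SE), adjusted p 0.0425), though in 6 of 12 alternatives only, and leaving out either library of line TNNI1 or of line WT, or the day 4.5 library of line TNNT2, ended the call (adjusted p up to 0.16). HAse1.5 cardioids had 9.93, 17.3 and 4.66 CPM at day 4.5 and 1.63, 25.2 and 5.58 at day 7.5. At day 7.5 line TNNI1 (1.63 CPM) and line WT (25.2 CPM) stood far apart under the same treatment.

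CCND2, a D cyclin known for driving cell-cycle entry in heart muscle cells, fell a step later. In WT it had 217, 280.2, 319, 297 and 260.5 CPM at day 1.5, 294 to 381 (median 367) at day 2.5 and 112 to 152 (median 121) at day 4.5. It did not pass the test from day 1.5 to 2.5 (0.17, 95% interval −0.16 to 0.50). From day 2.5 to 4.5 it fell with no overlap, by a log2 fold change of −1.42 ± 0.16 (SE) (adjusted p 4.54e-09). In KO the values were 234 to 399 (median 318) CPM at day 1.5, 256 to 339 (median 313) at day 2.5 and 91.7 to 256 (median 137) at day 4.5. The later step fell in KO too (−0.99, adjusted p 5.78e-06), with the highest day 4.5 library, cl51_R1, just above the lowest of day 2.5. Untreated cardioids went from 295, 222 and 253 CPM to 149, 185 and 161, a difference that missed the threshold although the groups did not overlap (−0.77, adjusted p 0.0549). It was called in 3 of 12 alternatives.

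At day 7.5, as a description, CCND2 had 163, 129 and 134 CPM in WT and 46.9, 51.8 and 49.8 CPM in KO. The KO libraries lay below every other library of the genotype arm, and the log2 fold change was −1.56. In run B, the only run with both conditions on that day, WT had 129 and 134 CPM and KO 46.9 CPM. Untreated cardioids had 133, 195 and 131 CPM, HAse1.5 cardioids 66.8, 122 and 53.7 and HAse2.5 cardioids 87.9, 128 and 83.2, for lines TNNI1, WT and TNNT2 in turn. Every line was lower with either enzyme than without, and line WT was the highest of the 3 in each group. The log2 fold changes were −1.04 for HAse1.5 and −0.68 for HAse2.5.

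The 20 proliferation genes (such as MKI67, CDK1 and the MCM helicase subunits) summed to 950 to 1342 CPM in WT and 405 to 564 CPM in KO at day 7.5, and to 1321 to 1987 CPM untreated, 539 to 1133 CPM in HAse1.5 and 651 to 853 CPM in HAse2.5. CCND2 and this sum were thus low in the same groups, and the part of either in the other was not tested. The cardiomyocyte markers at day 7.5 summed to 29905 to 33074 CPM in WT, 24236 to 29047 CPM in KO, 28070 to 35680 CPM untreated, 8954 to 14445 CPM in HAse1.5 and 15702 to 26563 CPM in HAse2.5. HAse1.5 had the lowest marker sums and KO the lowest CCND2.

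At day 4.5 the order in the enzyme arm was another. CCND2 had 439, 157 and 214 CPM in HAse1.5 and 118, 134 and 138 CPM in HAse2.5, around the untreated values given above. Line TNNI1 in HAse1.5 was the highest library of all 65 for CCND2, and the same library had the highest proliferation sum of its day, 4274 CPM against 1127 to 2940 CPM in the other 8; its part in the CCND2 value was not tested. HAse1.5 against HAse2.5 gave a log2 difference of 1.01 ± 0.29 (SE) with no overlap, which missed the threshold (edgeR adjusted p 0.138).

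The order of group means of CCND2 ran from WT day 2.5 (354 ± 31.8 CPM (SD, n = 6)) through KO day 1.5, HAse1.5 day 2.5, KO day 2.5, WT day 1.5, HAse1.5 day 4.5 and untreated day 2.5 to untreated day 4.5 (165 ± 18.3 CPM (SD, n = 3)). KO day 4.5, untreated day 7.5, WT day 7.5, HAse2.5 day 4.5 and WT day 4.5 followed, and HAse2.5 day 7.5, HAse1.5 day 7.5 and KO day 7.5 (49.5 ± 2.48 CPM (SD, n = 3)) came last. Neighbours in this order differed by no more than the larger of their SDs, except untreated day 2.5 against untreated day 4.5, and WT day 4.5 (129 ± 17.9 CPM (SD, n = 6)) against HAse2.5 day 7.5 (99.7 ± 24.7 CPM (SD, n = 3)). Over the 16 group means, as log2 CPM and among 9776 genes with a mean of at least 10 CPM, the genes most like CCND2 were ARHGAP11A (r = 0.98), the condensin subunit gene NCAPG (0.97) and the centromere chaperone gene HJURP (0.97). The most unlike were XPO4 (−0.92), SCAMP1 (−0.91) and A2M (−0.91). These and all such correlations are descriptions over groups that share lines and runs.

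CCND3, the third D cyclin, was low in the genotype arm and fell early there. In WT it had 23.5, 18.7, 25.6, 28.7 and 40.3 CPM at day 1.5 and 9.27 to 16.5 (median 14.3) at day 2.5. The groups did not overlap, and the log2 fold change was −1.15 ± 0.30 (SE) (edgeR adjusted p 0.00255). In KO it had 20.0 to 55.0 (median 26.7) CPM and then 4.81 to 21.8 (median 15.0) (−1.36, adjusted p 0.000322), with a small overlap. After day 2.5 no step was called for CCND3, and group means of the genotype arm stayed between 9.21 and 13.9 CPM. Untreated cardioids had 19.7 to 27.5 CPM at day 2.5 and 14.3 to 16.7 at day 4.5, with no overlap and no call. As a description, HAse1.5 at day 7.5 had 9.78 to 42.5 CPM. In line TNNT2 of that group CCND3 held 41.8% of the D cyclin counts.

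The share of each gene in the D cyclin counts is a description. At day 1.5 CCND1 held 40.3% ± 5.82 of the D cyclin counts in WT (SD, n = 5) and 38.9% ± 3.86 in KO (SD, n = 6). At day 2.5 its share was 10.6% ± 3.07 in WT and 15.3% ± 5.11 in KO, and CCND2 held 86.0% ± 2.91 and 81.2% ± 5.65 (SD, n = 6 each). No library of day 1.5 had a CCND1 share as low as the highest of day 2.5: the lowest was 30.7% against 23.9%. At day 7.5 CCND2 held 83.0% ± 5.63 in WT and 71.6% ± 5.96 in KO (SD, n = 3 each), the latter beside its lower level. Reads come from the 3′ end, so these shares set counts side by side and not full transcripts.

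**Figure D4:**
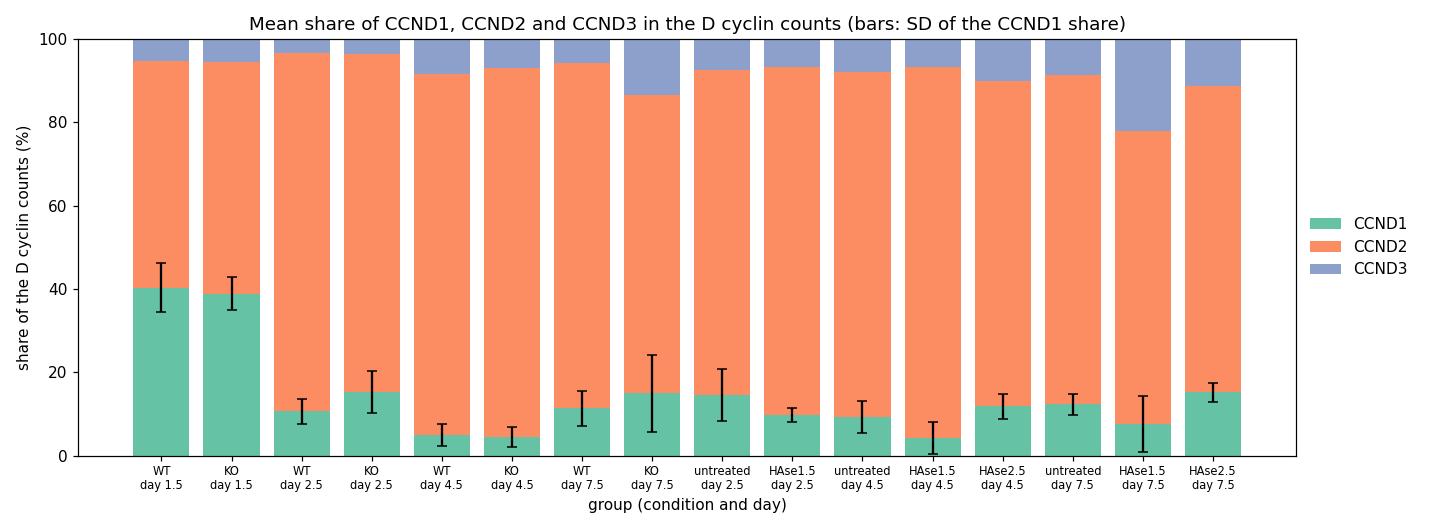
Mean share (%) of CCND1 (green), CCND2 (orange) and CCND3 (blue) in the D cyclin counts of each of the 16 groups; error bars are the SD of the CCND1 share. CCND1 held about 40.3% in WT and 38.9% in KO at day 1.5 and under 16% in every later group.

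The genes most like CCND1 across the groups were SNX5, a sorting nexin (r = 0.95), FABP5, a fatty acid binding protein (0.95), and NOLC1, a nucleolar protein (0.95). The most unlike were ID4 (−0.96), MVB12B (−0.96) and the growth factor gene MDK (−0.95). Of 16 transcription factors known to act on D cyclin genes, 15 were tested in the genotype arm. From day 1.5 to 2.5, 9 fell and 3 rose in WT and 10 fell and 4 rose in KO, beside 30.1% and 33.3% of all genes called. FOS, an immediate early gene (−3.615 in WT, −4.64 in KO), ETV4, an ETS factor downstream of FGF signalling (−3.34 and −2.73), and EGR1 (−2.36 and −2.37) were among those that fell. From day 2.5 to 4.5, 3 rose and 2 fell in WT and 6 rose and 3 fell in KO, with MYCN lower in both (−3.61 and −3.19). In untreated cardioids 1 of 14 rose and 3 fell over that step, MYCN among the latter (−3.08). Of all genes 34.5%, 30.5% and 23% were called in that step in WT, KO and untreated cardioids. The WT and untreated counts lay near these shares. Median log2 fold changes of the list were −1.06 and −1.19 in the first step and 0.07 and 0.75 in the second (WT and KO), against 0.01, 0.02, 0.03 and 0 over all genes.

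CDK4, a kinase partner of the D cyclins, fell from day 2.5 to 4.5. WT libraries had 133 to 297 (median 165) CPM at day 2.5 and 87.0 to 183 (median 106) at day 4.5, overlapping, with the run A libraries high on both days. The log2 fold change was −0.62 ± 0.24 (SE) (edgeR adjusted p 0.0375) and −0.68 ± 0.13 without run A (adjusted p 8.27e-05), and 6 libraries each ended the call when left out alone (WT_R1 or WT_TU_R1 of day 2.5, or WT_R2, WT_TU_R2, cl43_WT_UT or TNT2 of day 4.5, adjusted p up to 0.143). In KO it went from 148 to 267 (median 173) CPM to 77.7 to 111 (median 96.4) with no overlap (−0.94, adjusted p 0.00221), a call that was kept without run A (−0.82, adjusted p 4.28e-07) and lost without clone cl4 (−0.78, adjusted p 0.151). Untreated cardioids went from 187, 138 and 169 CPM to 107, 89.7 and 119.6, again with no overlap (−0.77, adjusted p 0.00919; 0.0579 without line WT of day 4.5). The earlier step, from day 1.5, was not called in WT (−0.58, adjusted p 0.0718) or KO (−0.46, adjusted p 0.139), but was without run A (−0.38 and −0.30, adjusted p 0.0316 in both). By day 7.5 its values were 87.2, 83.0 and 52.4 CPM in WT, 56.6, 67.9 and 81.0 in KO and 57.1, 74.0 and 47.5 untreated. The last step was not called in any of these (in KO −0.42, adjusted p 0.548; −0.46 and 0.0258 without run A), and in untreated cardioids it stood at the threshold (−0.71, adjusted p 0.0501; −0.68 and 0.0456 with line as a replicate block). Neither KO nor hyaluronidase gave a called difference in CDK4: the intervals of the log2 difference at day 4.5 were −0.90 to 0.04 for KO, −0.58 to 0.24 for HAse1.5 and −0.59 to 0.24 for HAse2.5.

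CDK6, the other kinase partner, was the member called under hyaluronidase. At day 2.5 it had 227, 244 and 284 CPM untreated and 125, 161 and 137 CPM in HAse1.5. All 3 lines were lower with the enzyme, the groups did not overlap, and the log2 fold change was −0.87 ± 0.18 (SE) (edgeR adjusted p 0.00791). The call was kept in 8 of 12 alternatives (log2 fold change −1.001 to −0.76, adjusted p up to 0.0925), and the exceptions were the fit of those groups alone and the fits without HAse1.5 replicate 1, HAse1.5 replicate 3 or untreated replicate 3. The proliferation genes summed to 5749 to 5854 CPM untreated and 5962 to 6259 CPM in HAse1.5 at that day, and none of the 20 was called. Beside it, cardiomyocyte markers summed to 266 to 599 CPM untreated and 65.2 to 129 CPM in HAse1.5 (1 of 7 called, MYL4, lower), and mesoderm markers to 69.8 to 126 CPM and 201 to 408 CPM (0 of 4 called). Pluripotency markers (POU5F1, SOX2 and others) summed to 662 to 816 CPM untreated and 484 to 592 CPM in HAse1.5 (0 of 3 tested called). Endothelial markers (PECAM1, KDR and others) summed to 170 to 279 CPM and 113 to 161 CPM (0 of 4 called). Sums of endoderm markers and of epicardial or fibroblast markers overlapped. The part of these lists in the CDK6 result was not tested.

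At day 4.5 CDK6 had 265, 338 and 369 CPM untreated, 301, 201 and 275 in HAse1.5 and 203, 193 and 232 in HAse2.5. HAse2.5 lay wholly below untreated, while HAse1.5 overlapped it. HAse2.5 missed the threshold by edgeR (−0.66 ± 0.17 (SE), adjusted p 0.138) and passed it by DESeq2 (adjusted p 0.0371); HAse1.5 did not pass (−0.40, adjusted p 0.274). At day 7.5, as a description, it had 326, 244 and 279.7 CPM untreated, 222, 194 and 207 in HAse1.5 and 190.3, 235 and 200.4 in HAse2.5. Both enzyme groups lay below the untreated group there, in every line.

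In the genotype arm CDK6 values went with the run, and KO against WT was not called on any tested day over all libraries. At day 2.5, WT libraries of runs B and C had 254 to 308 CPM (4 libraries) and KO libraries of these runs 110.2 to 181 CPM (5 libraries), with no overlap. In run A the order was the opposite, with 60.2 and 91.8 CPM in WT and 197 CPM in KO. That KO library, cl4_R1, had the fewest counts of all 65 (831062). Over all libraries KO against WT was −0.47 ± 0.37 (SE) and not called (edgeR adjusted p 0.676), and with run as a replicate block −0.40 (adjusted p 0.599). Without run A it was −0.93 ± 0.12 and called (adjusted p 8.46e-06). No call was made at day 1.5 or 4.5 without run A; at day 4.5 WT libraries of runs B and C had 248 to 288 CPM and KO libraries 210.0 to 269 CPM. Without run A the change of the KO effect over days 1.5, 2.5 and 4.5 was called for CDK6 (adjusted p 0.00388), which over all libraries it was not (adjusted p 1). The same held for its steps: from day 1.5 to 2.5 it was 0.56 in WT and −0.27 in KO with no call (adjusted p 0.298 and 0.619), and 0.43 and −0.50 without run A (adjusted p 0.0157 and 0.000684). From day 2.5 to 4.5 it was 0.60 in KO (adjusted p 0.239) and 0.64 without run A (adjusted p 2.02e-05). At day 2.5 the cardiomyocyte markers summed to 132 to 449 CPM in WT and 41.5 to 86.7 CPM in KO (4 of 7 called, lower, with MYH6 and TNNT2 most) and mesoderm markers to 51.5 to 122 CPM and 103 to 174 CPM (MESP1 and MIXL1 called, higher). Their part in the CDK6 values was not tested.

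**Figure D5:**
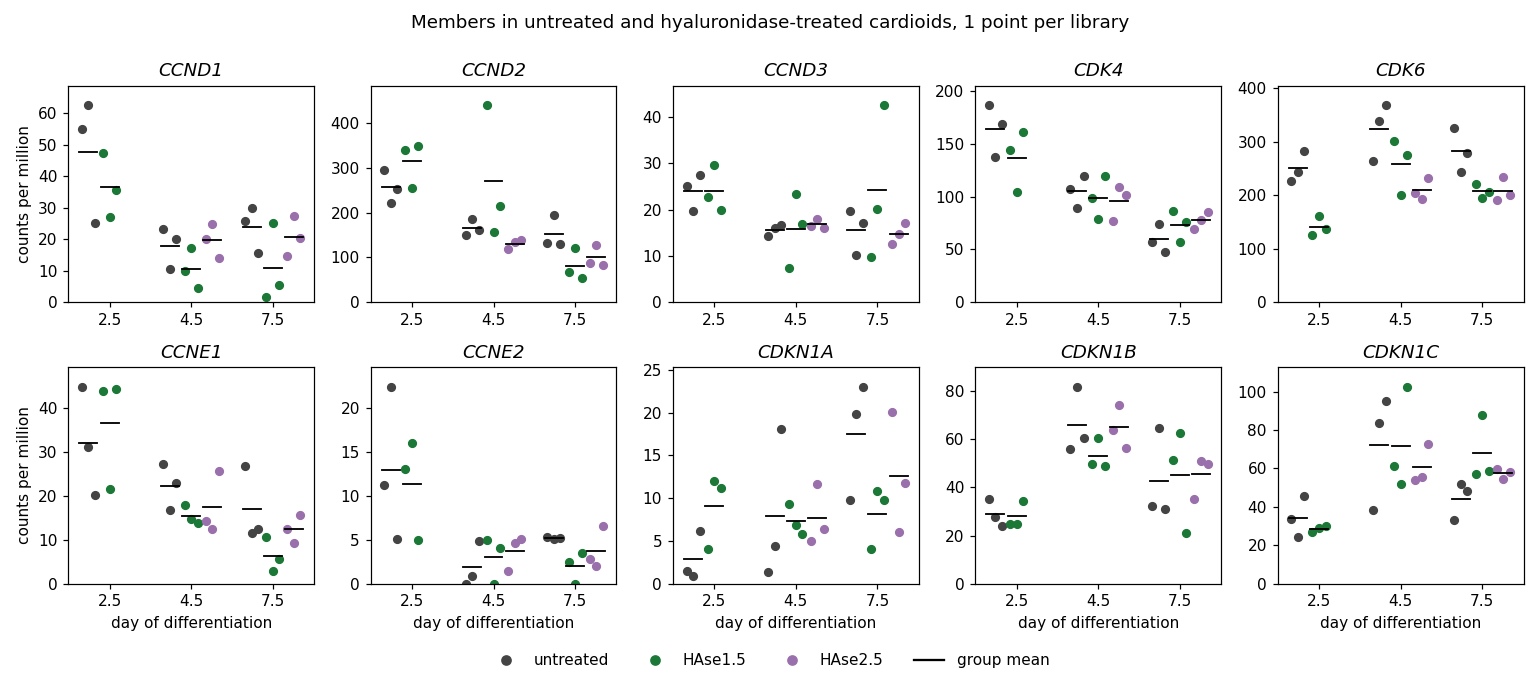
CPM of each member in every library of the enzyme arm at days 2.5, 4.5 and 7.5: untreated (grey), HAse1.5 (green) and HAse2.5 (purple), with the group mean as a black line. At day 2.5 CDK6 lay at 125 to 161 CPM in HAse1.5 and 227 to 284 CPM untreated.

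CCNE1, the E cyclin that starts S phase with CDK2, went down over the days. In KO it had 34.4 to 88.4 (median 42.6) CPM at day 1.5, 24.8 to 61.4 (median 28.8) at day 2.5 and 8.63 to 20.5 (median 14.8) at day 4.5. The highest value of each of the first 2 days was the run A library. Both KO steps were called (−0.82 and −1.14, edgeR adjusted p 0.0324 and 0.00515), and without run A they were −0.70 and −0.84 (adjusted p 0.00351 and 0.00146). Without clone cl4 neither was called (adjusted p 0.293 and 0.167), and the first was lost without any of 6 single libraries (adjusted p up to 0.183). In WT the values were 81.4, 73.7, 28.2, 47.7 and 38.8 CPM at day 1.5, 19.9 to 63.9 (median 30.4) at day 2.5 and 11.3 to 33.1 (median 22.8) at day 4.5. The WT steps missed the threshold (−0.78 and −0.67, adjusted p 0.0501 and 0.0859). The first was called without run A (−0.64, adjusted p 0.0323) and with run as a replicate block (−0.70, adjusted p 0.0152), and in 8 of 19 alternatives in all. The second was called with the block (−0.63, adjusted p 0.0292) but not without run A (−0.40, adjusted p 0.181), and in 3 of 20 in all. In KO the last step, to day 7.5, was called in 1 of 18 alternatives, the fit without run A (−0.82, adjusted p 0.0447). Whether WT and KO steps differ was covered by the change test, which did not call CCNE1 (adjusted p 1). As a description, at day 7.5 it had 26.8, 11.5 and 12.6 CPM untreated and 10.6, 2.88 and 5.58 CPM in HAse1.5, with no overlap.

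Group means of CCNE1 and CDK4 had a correlation of 0.90 over the 16 groups as log2 CPM, the highest among the 8 members with a mean of at least 10 CPM. Both were also high in run A at day 1.5. The lowest correlation was between CCND1 and CDKN1B (−0.81).

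CCNE2, a second E cyclin whose gene is a known E2F target, had few counts, and 7.0 libraries had none, where 3 counts would be 0.937 to 2.59 CPM (counting error only). Untreated cardioids had 11.2, 22.4 and 5.05 CPM at day 2.5 and 0, 0.888 and 4.87 at day 4.5. The groups were barely apart and the fall was called (−2.75 ± 0.91 (SE), edgeR adjusted p 0.03), but not without line WT of day 2.5, or without line TNNI1 or WT of day 4.5 (adjusted p 0.103 to 0.138). In WT it had 2.16 to 16.4 (median 8.11) CPM at day 2.5 and 0 to 12.5 (median 3.29) at day 4.5, which overlapped and were not called. In KO it had 2.77 to 24.9 (median 15.3) CPM at day 1.5 and 4.47 to 8.42 (median 6.60) at day 2.5, a step not called over all libraries (−1.39, adjusted p 0.0981) and called without run A (−1.66, adjusted p 0.00191). Of 10 E2F family genes, E2F1 (−1.23 in WT, −2.12 in KO, −2.88 untreated) fell from day 2.5 to 4.5 in all 3 series, and 3 fell and 1 rose in WT, 3 fell and 1 rose in KO and 2 fell in untreated cardioids. Calls over all genes in these steps were 34.5%, 30.5% and 23%, and the E2F family lay near those shares. The list's median log2 fold change was −0.71, −0.75 and −0.33. At day 4.5 E2F1 was lower (−1.48, adjusted p 0.0277) and E2F3 higher (0.65, adjusted p 0.0462) in KO than in WT.

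CDKN1A encodes p21, an inhibitor induced by p53 and by terminal differentiation, and was the member called between WT and KO. At day 4.5 it had 7.82 to 18.2 (median 13.9) CPM in WT and 1.62 to 5.21 (median 3.86) CPM in KO. Every KO library lay below every WT library, with means of 13.4 ± 4.43 CPM (SD, n = 6) and 3.59 ± 1.496 CPM (SD, n = 6). The log2 fold change was −1.961 ± 0.35 (SE), or 3.89-fold lower in KO (edgeR adjusted p 0.000538). The KO values rest on few counts, which limits how precisely the size of the fold is known. It was called in all 21 alternatives run (−2.08 to −1.80), which include fits without clone cl4 and without run A. The order also held within each run: 13.7 and 14.03 CPM in WT against 4.06 CPM in KO in run A, 7.82 and 18.2 against 3.67 CPM in run B, and 8.57 and 17.9 against 1.62 to 5.21 CPM in run C.

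Before day 4.5 no such gap was seen. At day 1.5 CDKN1A had 3.64, 3.01, 2.09, 5.64 and 6.72 CPM in WT and 1.40 to 12.0 (median 4.40) in KO, and at day 2.5 4.41 to 9.18 (median 7.03) and 8.29 to 16.1 (median 8.67). At day 2.5 the KO median was the higher, with overlap and no call (0.52, interval −0.14 to 1.18). The change of the KO effect over the 3 days was called (adjusted p 0.00841), the effect at day 4.5 being 2.20 log2 units below that at day 1.5. That call was kept in 42 of 43 alternatives and lost without clone cl4 (adjusted p 0.116). From day 2.5 to 4.5 the gene rose in WT (1.03 ± 0.33 (SE), adjusted p 0.0118) and fell in KO (−1.45 ± 0.36 (SE), adjusted p 0.00168); without run A the rise in WT was not called (0.73, adjusted p 0.17), while the fall in KO was (−1.58, adjusted p 0.0024).

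From day 4.5 to 7.5 CDKN1A rose in both. At day 7.5 it had 30.3, 27.2 and 43.3 CPM in WT, above every WT library of day 4.5, and 9.76, 10.9 and 9.29 CPM in KO, above every KO library of day 4.5. The rises were 1.34 and 1.52 (adjusted p 0.0324 and 0.02), called in 10 of 17 and 12 of 18 alternatives. The WT call was lost without any 1 of the day 7.5 libraries or without WT_R2 or cl43_WT_UT of day 4.5 (adjusted p 0.0633 to 0.269), and the KO call without any 1 of the day 7.5 libraries, without cl46_R1 of day 4.5 (adjusted p up to 0.096) or without clone cl4 (0.564). As a description, all 3 KO libraries lay below all 3 WT libraries at day 7.5 (−1.78). In run B, the only run with both conditions on that day, WT had 27.2 and 43.3 CPM and KO 9.76 CPM.

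The enzyme arm did not show the day 4.5 gap. CDKN1A had 1.36, 4.44 and 18.1 CPM untreated, 9.31, 6.91 and 5.82 in HAse1.5 and 5.03, 11.7 and 6.41 in HAse2.5, all overlapping. Line TNNT2 was the highest untreated library and the lowest with HAse1.5, and the intervals of the log2 difference were wide (−1.56 to 1.16 for HAse1.5 and −1.46 to 1.26 for HAse2.5). At day 2.5 HAse1.5 values (4.12, 12.0 and 11.2) were above the untreated value of the same line (1.53, 0.894 and 6.17) in 3 of 3 lines, with no call (edgeR adjusted p 0.552). As a description, at day 7.5 CDKN1A had 9.8 to 23.0 CPM untreated, 4.1 to 10.8 in HAse1.5 and 6.0 to 20.1 in HAse2.5. HAse1.5 overlapped untreated there but was lower in 3 of 3 lines, and HAse2.5 was lower in 2 of 3.

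Among 19 tested p53 targets (MDM2, SESN1, DDB2 and others), 0 were higher and 1 was lower in KO than in WT at day 4.5, FDXR (−1.04, edgeR adjusted p 0.0282), and the list's median was −0.37 against −0.03 over all genes. None of them was called in KO against WT at days 1.5 or 2.5, nor in any enzyme comparison. Cardiomyocyte markers at day 4.5 summed to 12655 to 27858 CPM in WT and 4702 to 15313 CPM in KO. The sums overlapped, and 2 of 7 markers were called lower (MYL7 and ACTN2). In HAse1.5 the sum was 814 to 4660 CPM against 9389 to 20160 CPM untreated, with 5 of 7 called lower, and CDKN1A values overlapped. Proliferation genes summed to 1110 to 2446 CPM in WT and 1031 to 2510 CPM in KO at day 4.5, with 2 of 20 called lower (TYMS and CDK1). The part of these in the CDKN1A difference was not tested. Of all genes 3.74% were called in KO against WT and 3.48% in HAse1.5 against untreated at day 4.5.

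CDKN1B encodes p27, an inhibitor that builds up as cells leave the cycle, and it rose from day 2.5 to 4.5 in all 3 series. In WT it went from 34.4 to 54.3 (median 42.7) CPM to 58.0 to 115 (median 77.2), in KO from 27.4 to 38.5 (median 35.6) to 56.4 to 89.2 (median 71.6). Untreated cardioids went from 35.2, 27.7 and 24.1 CPM to 56.0, 81.7 and 60.5. No series had any overlap between the days. The log2 fold changes were 0.94 ± 0.21 (SE), 1.07 ± 0.21 (SE) and 1.05 ± 0.31 (SE) (edgeR adjusted p 0.000422, 0.000119 and 0.0171). The untreated call was lost without line WT of either day or line TNNT2 of day 2.5 (adjusted p 0.0551 to 0.0835). It was not called between conditions on any tested day; at day 4.5 the interval was −0.68 to 0.13 for KO, −0.99 to 0.20 for HAse1.5 and −0.65 to 0.54 for HAse2.5.

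CDKN1C encodes p57, an imprinted inhibitor strong in developing organs, and it rose a step earlier. At day 1.5 it had 15.7, 5.12, 12.0, 16.4 and 4.13 CPM in WT and 3.16 to 12.5 (median 4.37) in KO. At day 2.5 it had 39.8 to 67.2 (median 56.6) CPM in WT and 52.8 to 123 (median 59.3) in KO, above every day 1.5 library. The rises were 2.18 ± 0.32 (SE) in WT and 3.24 ± 0.32 (SE) in KO (edgeR adjusted p 9.94e-07 and 2.19e-10), called in every alternative. The KO step was the larger, but the change of the KO effect was not called (adjusted p 0.646). At day 1.5 CDKN1C was the only member with an unadjusted p under 0.05 in KO against WT (−0.81, p 0.0229, adjusted p 0.937).

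After day 2.5 the step had opposite signs in the arms. In the genotype arm the log2 fold change to day 4.5 was −0.59 in WT (adjusted p 0.103) and −0.76 in KO (adjusted p 0.0369; −0.49 and 0.117 without run A, −0.28 and 0.717 without clone cl4). Day 4.5 values were 23.8 to 45.1 (median 38.4) CPM in WT and 21.4 to 62.0 (median 38.8) in KO. In untreated cardioids of the enzyme arm it rose, from 33.7, 24.1 and 45.4 CPM to 38.2, 83.5 and 95.3 (0.91, adjusted p 0.0316), with overlap, and the call was kept in 8 of 12 alternatives. The difference between the arms was not tested, since they were fitted apart and share no library. As a description, at day 7.5 CDKN1C had 28.2 to 41.2 CPM in WT and 25.9 to 37.7 in KO, which overlapped. In the enzyme arm it had 33.0 to 51.7 CPM untreated, 57.1 to 87.7 in HAse1.5 and 54.4 to 59.5 in HAse2.5. Both enzyme groups lay above untreated there, in 3 of 3 lines each.

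Of the 6 imprinted genes near CDKN1C, 5 were tested in the genotype arm. From day 1.5 to 2.5, KCNQ1OT1 (1.87 in WT, 2.32 in KO), SLC22A18 (1.08 and 1.78) and H19 rose, while PHLDA2 fell (−4.96 and −3.30). From day 2.5 to 4.5, KCNQ1 and SLC22A18 rose in WT, KCNQ1 rose in KO, and KCNQ1OT1 rose in untreated cardioids (1 of 3 tested). Of all genes 30.1% in WT and 33.3% in KO were called in the earlier step. In the later step it was 34.5% in WT, 30.5% in KO and 23% in untreated cardioids, and the neighbours lay near those shares. The genes most like CDKN1C across groups were SLC38A6 (r = 0.95), the adaptor gene SHC2 (0.95) and the adhesion receptor gene ADGRA2 (0.94), and the most unlike were RRP12 (−0.92), TIMM13 (−0.91) and METAP1 (−0.91).

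Other genes of the cycle were followed over the day 2.5 to 4.5 step, when CCND1, CCND2 and CDK4 fell and CDKN1B rose in WT and KO. All 20 proliferation genes fell in WT and in KO, and 17 fell in untreated cardioids, with medians of −1.63, −1.89 and −1.34. Of the G1/S partners (CDK2, CDC25A, SKP2, RB1 and others), 6 of 18 fell and 1 rose in WT, 5 fell and 2 rose in KO, and 4 of 17 fell and 2 rose untreated. Of all genes 34.5%, 30.5% and 23% were called in these steps, so the G1/S partners lay near the background. CCNA2, the S-phase cyclin (−1.42 in WT, −2.07 in KO, −1.40 untreated), was among those that fell, as was CKS1B, a CDK subunit (−1.43 in WT, −1.46 in KO). CDC25A, a phosphatase that activates CDK2, fell in WT (−1.38) and KO (−1.43), and RB1, the retinoblastoma gene, rose in all 3 series (0.71, 0.89 and 1.18). Over all genes the median log2 fold change of these steps was 0.03, 0 and 0.02.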

How the data were processed

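Gene counts of 65 libraries made with a 3′ mRNA-seq kit (QuantSeq FWD) were used. The authors deposited them as 1 table of raw counts per gene, counted with featureCounts (Subread 1.6.2) on GRCh38 (hg38), per the submitters' processing notes; the aligner and the strand setting are not given in the sources used here. All 58735 gene IDs matched GENCODE 29. In the table, 4 further columns match none of the samples and were not used.

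Each arm was fitted apart in edgeR 4.0.16 (R 4.3.3): TMM factors, filterByExpr with a minimum count of 10, 1 mean per group, robust quasi-likelihood F-tests, and Benjamini-Hochberg adjustment over all 13797 genes of the genotype arm or 12748 of the enzyme arm, at 0.05. The change of the KO effect tests the condition-by-day terms of days 1.5, 2.5 and 4.5 together. CPM are counts per 1000000 of the raw total; 95% intervals are 1.96 standard errors each way. DESeq2 1.42.0 was an alternative, beside other scalings, no filter, only the groups compared, a replicate block, and each library left out. The test script was checked on simulated data.

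The members and lists were chosen with earlier results of these data known. All members are named; from other lists, at most 4 called genes per comparison with the largest absolute log2 fold change are named, and others are named only where a count is small, chosen after their values were seen. Likeness used group means of log2 CPM with a prior count of 2.

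In the enzyme arm replicate numbers stand for the line, so the numbers pair the libraries: 15 of 21 same-line pairs of groups had residuals correlated above 0.1 (lowest −0.10, median 0.21). In the genotype arm, 26 of 37 same-run pairs did (lowest −0.07, median 0.16). The extract protocol speaks of biological replicates, but repeats of 1 clone or line are not independent clones, and p-values measure the spread between these libraries. No 2 replicates agreed within sampling noise (chi-square per degree of freedom 2.07 to 71.8 over 115 pairs). The number of counts behind a value limits its precision: a CPM of 1 is about 1 to 4 counts.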

Additional observations from a re-analysis of the deposited data

Results flagged for a closer look

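In 60 sets of a member and a group of 4 to 10 libraries, 9 had a highest or lowest library set apart from the rest by Dixon's criterion; chance alone sets apart about 1 in 20. Of these, 6 were the library of clone cl4_R1, the only KO clone in run A. At day 1.5 it was the highest KO library for CCNE1 (88.36 CPM, next 46.7) and CDK4 (356.826 CPM, next 199.3) and the lowest for CDK6 (52.339 CPM, next 170.5). At day 2.5 it was the highest for CCNE1 (61.367 CPM, next 30.8), CDK4 (267.128 CPM, next 190.7) and CDKN1C (122.735 CPM, next 70.7). The day 2.5 library of cl4_R1 had the fewest counts of all 65 (831062).

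The other 3 lay in run C. CCND3 at day 1.5 was highest in cl14_R1 (54.988 CPM, next 31.7). CDKN1A was highest in cl4_R3 at day 1.5 (12.022 CPM from 19 counts, next 4.98) and in cl51_R1 at day 2.5 (16.072 CPM from 28 counts, next 9.45).

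The difference of CDKN1A between KO and WT was not alike over days 1.5, 2.5 and 4.5 (edgeR adjusted p 0.00841 for the change), with log2 fold changes of 0.24, 0.52 and −1.961. At day 4.5 all 6 KO libraries were below all 6 WT libraries.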

How the results depend on the processing

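Of 190 member values, 31 were called; none of these 31 changed sign in any alternative, and 15 were called in every one. Another 27 were called only in alternatives, and 132 never were, of which 52 changed sign somewhere. These tallies take in the day 7.5 differences between conditions and CCND2 from day 4.5 to 7.5, which are descriptions with no test. CCND2 is among the 31 in KO against WT at day 7.5 and in the KO step to day 7.5, the latter also among the 15. Low counts limit CCNE2 and CDKN1A, and at day 7.5 KO rests on 2 clones and shares only run B with WT. Leaving out clone cl4, run A or the library with the fewest counts was added after the data were seen; where a value moves below, the cause was not tested.

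Without run A, members called were 1 in KO against WT at day 2.5 (0 in all libraries), 6 in the WT step from day 1.5 to 2.5 (3), 7 in the KO step from day 1.5 to 2.5 (4), 3 in the KO step from day 4.5 to 7.5 (1) and 2 for the change of the KO effect (1). Without clone cl4 they were 4 in the KO step from day 2.5 to 4.5 (7), 0 from day 4.5 to 7.5 (1) and 0 for the change of the KO effect (1). With the replicate block of runs, 6 were called in the WT step from day 1.5 to 2.5 and 3 from day 4.5 to 7.5 (1), and with the replicate block of lines 1 in the untreated step from day 4.5 to 7.5 (0); other counts stayed within 1.5 times under the block. CDKN1A in KO against WT at day 4.5 was called with the block too.

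DESeq2 gave 2 in the WT step from day 4.5 to 7.5, 1 in HAse2.5 against untreated at day 4.5 (0) and 1 in the untreated step from day 4.5 to 7.5. Fits of only the groups compared gave 0 in the WT step from day 4.5 to 7.5, 0 in HAse1.5 against untreated at day 2.5 (1) and 1 in HAse2.5 against untreated at day 4.5. With no filter on low counts there were 0 in each of the WT and KO steps from day 4.5 to 7.5, 1 in HAse1.5 against HAse2.5 (0) and 1 in the untreated step from day 4.5 to 7.5, which library totals without TMM factors also gave (1). Leaving out single libraries gave 3 to 5 in the WT step from day 1.5 to 2.5, 0 to 1 in the WT and in the KO step from day 4.5 to 7.5, 0 to 1 in HAse1.5 against untreated at day 2.5, 0 to 1 in HAse1.5 against HAse2.5, 0 to 4 in the untreated step from day 2.5 to 4.5 (5) and 0 to 1 in the untreated step from day 4.5 to 7.5.

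Signs changed for CCND2 in the untreated step from day 4.5 to 7.5, from 0.0139 to −0.1015 with library totals, −0.0065 with no filter and −0.1857 to 0.1033 without single libraries. CDK6 in the change of the KO effect ranged from −0.5075 to 0.0315 without single libraries.

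Over all genes, counts of calls ranged over the alternatives from 19 to 292 for KO against WT at day 2.5 (137), 212 to 899 at day 4.5 (516) and 6 to 193 at day 7.5 (48). They ranged from 2736 to 5403 (4153), 3430 to 5930 (4756) and 138 to 852 (372) for the WT steps, 2265 to 5800 (4600), 2057 to 5483 (4205) and 206 to 2206 (858) for the KO steps, and 41 to 310 (85) for the change of the KO effect. In the enzyme arm they ranged from 61 to 290 (146), 199 to 662 (443) and 145 to 713 (425) for HAse1.5 at days 2.5, 4.5 and 7.5, 0 to 201 (28) and 3 to 377 (84) for HAse2.5 at days 4.5 and 7.5, 2 to 296 (46) for HAse1.5 against HAse2.5, and 276 to 1957 (814) for the untreated step from day 4.5 to 7.5.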
